A study of Mus musculus with 15 samples.

Results

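The genes described here are 10 genes known to be induced by low oxygen: Vegfa, Ddit4, Ero1a, Bnip3, Egln3, Ankrd37, P4ha1, Ndrg1, Pfkfb4 and Pdk1. They were chosen by symbol from the 18194 genes that the array's annotation names, and each is represented by its probe set (the oligonucleotides that measure a transcript together) with the highest mean over all 15 arrays. PBAB and HA cultures began with naive CD4 T cells of the 3A9 strain, sorted by their transgenic receptor for hen egg lysozyme (HEL), and gave their RNA on day 4. PBAB cultures were stimulated with antibodies on the plate, 1 µg/ml against CD3 and 10 µg/ml against CD28. HA cultures received HEL protein, 2 µg/ml for Th17 and Th1 and 1 µg/ml for Th9, with wild type splenocytes irradiated with 30 Gy as antigen-presenting cells (APC). The Th17 mixture held 3 ng/ml TGF-beta, 5 ng/ml IL-1alpha and IL-6 at 10 ng/ml, beside 20 µg/ml anti-IFN-gamma and 10 µg/ml of both anti-IL-4 and anti-IL-12. The Th9 mixture held 10 ng/ml IL-4 with 1 ng/ml TGF-beta, and the Th1 mixture 10 ng/ml IL-12 with 10 µg/ml anti-IL-4. The medium of these cultures contained 50 µM 2-mercaptoethanol. Each lineage had 2 PBAB arrays, 2 HA arrays and 1 array labelled APC alone, whose cells and culture the labels do not describe further. The labels name no low-oxygen treatment, so the name of the gene group rests on what is known of its genes and cannot be checked in these arrays.

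When oxygen is short, prolyl hydroxylases stop marking the alpha subunits of hypoxia-inducible factor (HIF) for destruction by the von Hippel-Lindau ubiquitin ligase. HIF-alpha then pairs with Arnt and binds a short core motif, ACGTG or GCGTG, in its target genes. In T cells the HIF1A protein also rises after receptor stimulation in normal oxygen, through mTOR, and it is known for supporting glycolysis and Th17 differentiation. Several of the genes have other known inputs as well, among them ATF4, a transcription factor of the amino acid and endoplasmic reticulum stress responses, which can induce Ddit4 and Vegfa.

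The 10 genes lie on 9 chromosomes, with Ddit4 and P4ha1 both on chromosome 10. The promoter table of RefSeq (mouse build GRCm38.p6), which gives 250 bases before and 50 bases after annotated transcript starts, held 11 windows for 9 of the 10 genes, and Ndrg1 had none. All 9 genes had ACGTG or GCGTG on either strand in at least 1 window, as did 46.7% of the 27025 genes in that table. Of the single windows, 9 of 11 had a match, against 43.8% of all 32851 windows. The windows without one were 1 of 2 for Vegfa and 1 of 2 for Pdk1. For Vegfa the window without a match was the one at the gene's annotated 5′ end (chr17:46032328-46032627). Its matches lay in a window inside the gene (chr17:46025114-46025413). The windows of Ankrd37 and Pfkfb4 also lay inside their annotated genes. The 250 bases before the start are printed below for 4 genes that were higher in PBAB cultures and, for contrast, for Bnip3, which was not. They are shown because they carry the motif that the name of the group refers to. Capitals mark ACGTG or GCGTG, or CACGT or CACGC where the match is on the other strand, and each sequence runs 5′ to 3′ along the gene's own strand.
Ddit4, chr10:59951771-59952020, minus strand: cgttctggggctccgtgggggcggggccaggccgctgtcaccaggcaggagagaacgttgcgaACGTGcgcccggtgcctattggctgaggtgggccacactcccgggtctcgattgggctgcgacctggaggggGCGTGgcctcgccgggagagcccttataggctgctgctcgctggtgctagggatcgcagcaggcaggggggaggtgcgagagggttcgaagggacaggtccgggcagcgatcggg
Ero1a, chr14:45318573-45318822, minus strand: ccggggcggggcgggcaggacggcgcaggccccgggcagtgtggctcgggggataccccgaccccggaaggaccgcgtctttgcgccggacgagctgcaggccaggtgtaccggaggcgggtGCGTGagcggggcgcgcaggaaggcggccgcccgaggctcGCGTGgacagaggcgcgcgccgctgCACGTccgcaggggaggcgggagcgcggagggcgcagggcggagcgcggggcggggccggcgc
P4ha1, chr10:59323046-59323295, plus strand: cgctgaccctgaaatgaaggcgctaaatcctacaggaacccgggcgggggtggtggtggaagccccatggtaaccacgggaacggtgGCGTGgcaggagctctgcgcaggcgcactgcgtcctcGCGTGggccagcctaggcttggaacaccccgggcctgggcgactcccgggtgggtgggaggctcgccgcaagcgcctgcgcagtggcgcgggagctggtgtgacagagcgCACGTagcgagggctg
Pfkfb4, chr9:108991652-108991901, plus strand: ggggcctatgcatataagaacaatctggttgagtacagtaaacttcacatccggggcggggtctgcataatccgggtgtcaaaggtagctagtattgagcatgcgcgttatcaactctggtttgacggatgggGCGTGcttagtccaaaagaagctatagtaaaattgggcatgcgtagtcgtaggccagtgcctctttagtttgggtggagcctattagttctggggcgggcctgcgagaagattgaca
Bnip3, chr7:138909507-138909756, minus strand: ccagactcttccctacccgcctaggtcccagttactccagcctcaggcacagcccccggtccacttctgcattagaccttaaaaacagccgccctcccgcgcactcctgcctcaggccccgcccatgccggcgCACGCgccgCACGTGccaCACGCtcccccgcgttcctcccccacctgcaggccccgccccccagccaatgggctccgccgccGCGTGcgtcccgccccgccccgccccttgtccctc
Ero1a and P4ha1 had 3 matches each, Ddit4 had 2 and Pfkfb4 had 1. Bnip3 had 5, of which 2 overlap in a CACGTG palindrome, a motif that other factors bind too and that was present in 7.15% of all windows. A match in these letters is a description of the sequence and does not show binding.

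The T cell label was borne out by marker genes in the activated cultures. The mean of 11 T cell markers was 10.98 to 11.29 on the log2 scale in the 6 PBAB arrays, 10.76 to 11.45 in the 6 HA arrays and 6.74 to 7.94 in the 3 arrays of APC alone, and all 11 exceeded the filter threshold of 5.07 in every array. Markers of macrophages and monocytes went the other way: their mean was 4.68 to 5.05 in PBAB, 5.05 to 6.76 in HA and 9.37 to 9.69 in APC alone. The actin control's 3′-minus-5′ difference, a sign of RNA integrity, was 0.12 to 0.28 in PBAB, 0.05 to 0.11 in HA and 0.74 to 0.99 in APC alone. That of the Gapdh control overlapped between them: -0.31 to -0.16 in PBAB, -0.46 to -0.20 in HA and -0.25 to 0.11 in APC alone. The 3 arrays of APC alone stood apart, correlating with activated arrays at 0.37 to 0.57 over the tested genes, against 0.98 to 0.99 between replicates. In such bulk RNA, fewer cells of a type and less RNA per cell cannot be told apart.

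Among the activated cultures, Th17 cells under PBAB had the highest mean of 8 of the 10 genes, and Th17 cells under HA had the lowest mean of 7. The exceptions at the top were Ankrd37 and Pdk1, which were highest in Th1 cells under HA. At the bottom, P4ha1 was lowest in Th9 HA cultures, and Bnip3 and Pdk1 in Th1 PBAB cultures. For 7 of the 10 genes the arrays of the highest and the second group overlapped, and for P4ha1, Ankrd37 and Pdk1 they did not. These orders and overlaps were not counted over all genes tested, so whether the counts are unusual cannot be told.

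**Figure D1:**
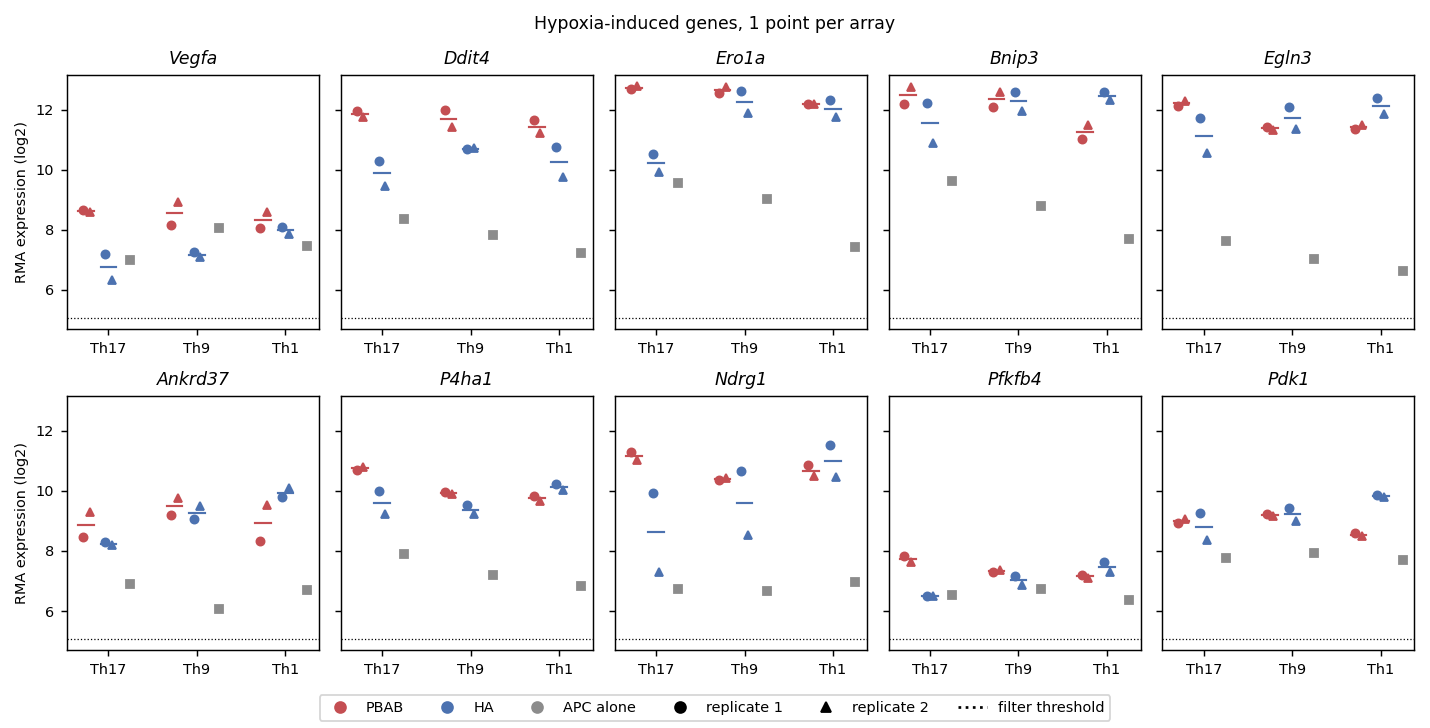
Expression of the 10 genes (vertical axis, log2 RMA value) in each of the 15 arrays, by lineage on the horizontal axis and by activation in colour, with PBAB left of HA left of APC alone. Short lines are means of 2 arrays and the dotted line is the filter threshold of 5.07. Th17 PBAB arrays lie above Th17 HA arrays for 8 genes, and Th1 PBAB arrays lie below Th1 HA arrays for 6.

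The series asked how T helper cells made with plate-bound antibody differ from those made with presented antigen. Averaged over the 3 lineages (6 PBAB arrays against 6 HA arrays), Ddit4, Vegfa, Ero1a, P4ha1 and Pfkfb4 were higher in PBAB, by 1.39, 1.19, 1.02, 0.44 and 0.41 on the log2 scale. The other 5 genes did not pass the test, a Benjamini-Hochberg adjusted p under 0.05 over all 15498 genes tested with limma, and none was lower. Of all genes tested 30.6% passed it, 13.2% as higher in PBAB and 17.3% as lower. With the replicate number as a block, 6 of the 10 passed as higher and 1, Pdk1, as lower, beside 18.9% and 23.3% of all genes. The median difference of the 10 genes was 0.42, against 0.02 for all genes tested.

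Counts of the activation difference were not the same in the 3 lineages. In Th17 cultures all 10 differences were above 0 and 5 genes passed the test, whereas in Th9 cultures 8 were above 0 and 1 passed. In Th1 cultures 3 were above 0, with 1 gene higher in PBAB and 1 lower. Both PBAB arrays lay above both HA arrays for 8 genes in Th17, 4 in Th9 and 1 in Th1, as they did for 26.3%, 24.9% and 27.6% of all genes tested. Both lay below for 6 genes in Th1, where 26.8% of all genes did so. The medians of the 10 genes were 1.18 in Th17, 0.36 in Th9 and -0.35 in Th1, beside medians of -0.0021, 0.0062 and 0.03 over all genes tested. Of all genes tested 17.1% passed in Th17 (6.66% higher), 13.7% in Th9 (7.39% higher) and 14.6% in Th1 (5.22% higher and 9.4% lower). With the replicate block 7 of the 10 were higher in Th17, 3 in Th9 and 1 in Th1, where 3 were lower. Of all genes 12.5%, 13.8% and 10.8% were then higher, and 17.4% were lower in Th1. All 3 contrasts use the same estimate of spread, from 2 arrays per group.

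**Figure D2:**
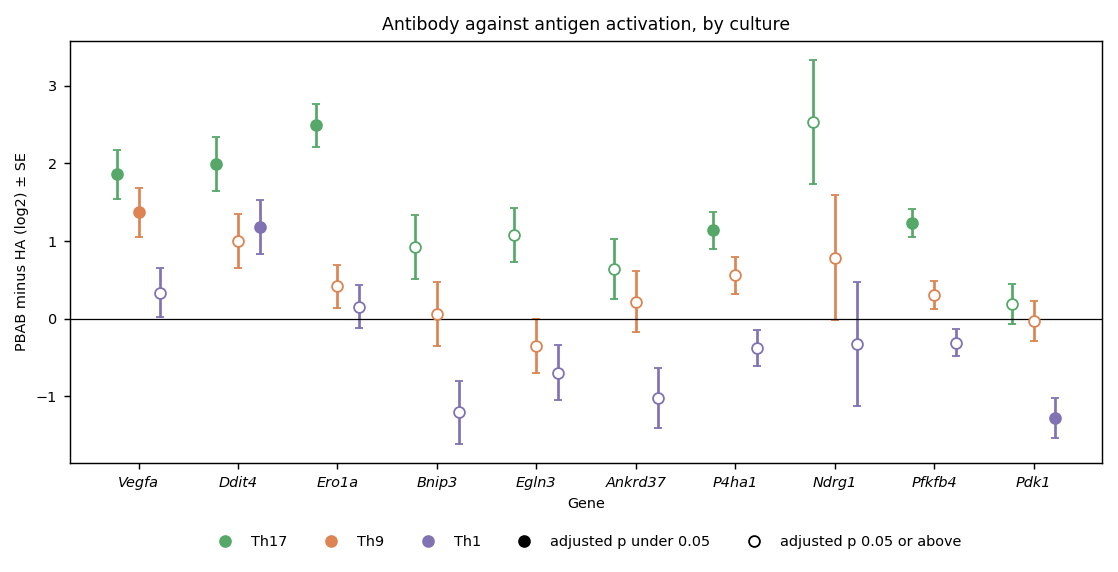
PBAB minus HA difference of each gene (log2, points) with its standard error from the limma fit (bars), for Th17, Th9 and Th1 cultures from left to right, n = 2 arrays per group. Filled points passed the test at an adjusted p under 0.05. The Th17 point is the highest of the 3 for each gene, and only Ddit4, Vegfa and Ero1a have a Th1 point above 0.

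Ddit4, which encodes an inhibitor of mTORC1 signalling, was the gene that separated the activations most fully. Its values were 11.96 and 11.77 in Th17 PBAB arrays, against 10.28 and 9.48 in Th17 HA and 8.37 in APC alone. In Th9 cultures they were 11.99 and 11.42 under PBAB, against 10.69 and 10.73 under HA and 7.81 in APC alone. In Th1 cultures they were 11.65 and 11.24 under PBAB, against 10.75 and 9.77 under HA and 7.21 in APC alone. All 6 PBAB arrays lay above all 6 HA arrays, which no other gene of the 10 showed and which 4.65% of all genes tested did. The differences were 1.99 ± 0.35 in Th17 (SE; adjusted p = 0.00346), 1.00 ± 0.35 in Th9 (adjusted p = 0.0898) and 1.19 ± 0.35 in Th1 (adjusted p = 0.0452). With the replicate number as a block, Th9 passed as well (adjusted p = 0.00598). The Th1 call was lost in 9 of 21 alternatives, among them the omission of Th1 HA 2, which left 0.70. The gene's response did not pass a test of difference between lineages (F test, adjusted p = 0.499).

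Vegfa, the secreted growth factor that drives blood vessel growth, followed in Th17 and Th9 cultures. It was 8.66 and 8.58 in Th17 PBAB arrays, against 7.19 and 6.33 in Th17 HA and 7.004 in APC alone. Th9 values were 8.16 and 8.94 under PBAB, against 7.26 and 7.09 under HA and 8.07 in APC alone. In Th1 it was 8.06 and 8.59 under PBAB, against 8.10 and 7.87 under HA and 7.47 in APC alone. PBAB and HA arrays were apart in Th17 and Th9 and overlapped in Th1, and the arrays of APC alone lay within the range of the HA arrays. The differences were 1.86 ± 0.32 in Th17 (adjusted p = 0.00306), 1.37 ± 0.32 in Th9 (adjusted p = 0.0165) and 0.34 ± 0.32 in Th1 (adjusted p = 0.561). The Th9 call was lost without Th9 HA 1, Th9 HA 2 or Th9 PBAB 2, where adjusted p reached 0.125. The other Vegfa probe set also passed in Th17 (2.58) and Th9 (1.48) and not in Th1 (0.76).

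Ero1a encodes the endoplasmic reticulum oxidase that recharges protein disulfide isomerase, and its response was largest in Th17. It was 12.68 and 12.79 in Th17 PBAB arrays, against 10.54 and 9.94 in Th17 HA and 9.56 in APC alone. The Th9 arrays gave 12.57 and 12.77 under PBAB, against 12.61 and 11.89 under HA and 9.05 in APC alone. In Th1 it was 12.20 and 12.19 under PBAB, against 12.32 and 11.77 under HA and 7.44 in APC alone. PBAB values lay between 12.19 and 12.79 in the 3 lineages, and the Th17 HA arrays were lower than the HA arrays of the other lineages. The Th17 difference was 2.50 ± 0.28 (adjusted p = 0.000446), and 0.42 ± 0.28 and 0.15 ± 0.28 in Th9 and Th1 did not pass (adjusted p = 0.421 and 0.789). Both other probe sets passed in Th17 (2.11 and 1.82) and not in Th9 (0.32 and 0.30) or Th1 (-0.02 and -0.07).

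P4ha1, a catalytic subunit of the enzyme that hydroxylates prolines in collagen, and Pfkfb4, a bifunctional enzyme that sets the level of an activator of phosphofructokinase, were both higher in PBAB in Th17 cultures. P4ha1 was 10.71 and 10.79 in Th17 PBAB arrays, against 10.01 and 9.22 in Th17 HA and 7.90 in APC alone. In Th9 cultures it reached 9.97 and 9.89 under PBAB, against 9.52 and 9.22 under HA and 7.19 in APC alone, and in Th1 9.83 and 9.67 under PBAB, against 10.22 and 10.04 under HA and 6.84 in APC alone. The activations were apart in all 3 lineages, with PBAB above HA in Th17 and Th9 and below it in Th1. Its difference was 1.14 ± 0.23 in Th17 (adjusted p = 0.00802), 0.56 ± 0.23 in Th9 (adjusted p = 0.163, and 0.0447 with the replicate block) and -0.38 ± 0.23 in Th1 (adjusted p = 0.345). The Th17 call was lost without Th17 HA 2 (0.75, adjusted p = 0.0589), without Th17 PBAB 2, and with the other probe set (0.84), which in Th1 passed as lower (-1.01, adjusted p = 0.0412). The averaged call was the least firm of the 5: it was lost in 11 of 21 alternatives, and fell to 0.10 with the other probe set.

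Pfkfb4 was 7.84 and 7.63 in Th17 PBAB arrays, against 6.51 and 6.49 in Th17 HA and 6.55 in APC alone. Th9 arrays held 7.30 and 7.36 under PBAB, against 7.18 and 6.87 under HA and 6.73 in APC alone, and in Th1 7.21 and 7.12 under PBAB, against 7.65 and 7.30 under HA and 6.35 in APC alone. Both Th17 HA arrays lay just below the array of APC alone, and the directions were those of P4ha1. Its difference was 1.23 ± 0.18 in Th17 (adjusted p = 0.00128), 0.31 ± 0.18 in Th9 (adjusted p = 0.336) and -0.31 ± 0.18 in Th1 (adjusted p = 0.298).

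Ndrg1, a stress-responsive cytoplasmic protein, had the widest spread of the 10 genes over the activated arrays, 4.23 on the log2 scale. It was 11.31 and 11.02 in Th17 PBAB arrays, against 9.94 and 7.32 in Th17 HA and 6.72 in APC alone. Its Th9 values were 10.37 and 10.42 under PBAB, against 10.67 and 8.53 under HA and 6.67 in APC alone, and in Th1 10.85 and 10.49 under PBAB, against 11.54 and 10.45 under HA and 6.95 in APC alone. PBAB replicates differed by at most 0.37 and HA replicates by 1.09 to 2.63, with replicate 2 the lower in each lineage. The Th17 difference of 2.54 ± 0.80 did not pass (adjusted p = 0.054) and passed with the replicate block (adjusted p = 0.00452). Without Th17 HA 2 it was 1.22. The block also brought the averaged difference of 1.00 past the test (adjusted p = 0.0231, and 0.139 without it), and 3 of the 4 other Ndrg1 probe sets passed in Th17 (2.09 to 2.71).

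Bnip3, a mitochondrial outer membrane protein that marks mitochondria for autophagy, and Egln3, an oxygen-sensing prolyl hydroxylase that acts on HIF-alpha, had averaged differences near 0 (-0.07 ± 0.24 and 0.01 ± 0.20). Bnip3 was 12.21 and 12.76 in Th17 PBAB arrays, against 12.24 and 10.89 in Th17 HA and 9.63 in APC alone. In Th9 it was 12.09 and 12.61 under PBAB, against 12.60 and 11.97 under HA and 8.80 in APC alone, and in Th1 11.02 and 11.48 under PBAB, against 12.59 and 12.32 under HA and 7.68 in APC alone. The arrays overlapped in Th17 and Th9 and were apart in Th1, with PBAB lower by 1.21 ± 0.41 (adjusted p = 0.0779, and 0.0406 with the replicate block).

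Egln3 was 12.14 and 12.30 in Th17 PBAB arrays, against 11.72 and 10.56 in Th17 HA and 7.62 in APC alone. In Th9 arrays it stood at 11.44 and 11.32 under PBAB, against 12.10 and 11.36 under HA and 7.04 in APC alone, and in Th1 11.37 and 11.50 under PBAB, against 12.39 and 11.87 under HA and 6.62 in APC alone. PBAB lay above HA in Th17 and below it in Th1. Its difference of 1.08 ± 0.35 in Th17 had adjusted p = 0.0618, and 0.0128 with the block, while -0.70 ± 0.35 in Th1 did not pass with either (adjusted p = 0.239 without it). With the other Egln3 probe set, 1418648_at, PBAB and HA arrays overlapped in both Th17 and Th1. The differences were then 1.70 in Th17 and -0.38 in Th1, neither past the test (limma, adjusted p = 0.425 and 0.885). The separation of the arrays therefore holds for the probe set used and not for the other.

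Ankrd37, an ankyrin-repeat protein known as a HIF target, was 8.45 and 9.31 in Th17 PBAB arrays, against 8.29 and 8.19 in Th17 HA and 6.91 in APC alone. In Th9 it was 9.21 and 9.78 under PBAB, against 9.05 and 9.50 under HA and 6.08 in APC alone, and in Th1 8.32 and 9.52 under PBAB, against 9.79 and 10.09 under HA and 6.69 in APC alone. It was lower in replicate 1 than in replicate 2 of each PBAB group, by 0.57 to 1.19. The Th1 difference of -1.02 ± 0.39 passed with the block alone (adjusted p = 0.00967, and 0.117 without it), and the Th17 difference of 0.64 ± 0.39 did not pass.

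Pdk1, which encodes pyruvate dehydrogenase kinase and so restrains entry of pyruvate into the mitochondrial cycle, differed most in Th1, where it was lower in PBAB. It was 8.94 and 9.07 in Th17 PBAB arrays, against 9.25 and 8.37 in Th17 HA and 7.76 in APC alone. In Th9 it was 9.22 and 9.15 under PBAB, against 9.44 and 9.01 under HA and 7.94 in APC alone, and in Th1 8.58 and 8.51 under PBAB, against 9.87 and 9.79 under HA and 7.69 in APC alone. The Th1 arrays were apart and those of Th17 and Th9 overlapped. The Th1 difference was -1.28 ± 0.26 (adjusted p = 0.00814), beside 0.19 ± 0.26 in Th17 and -0.04 ± 0.26 in Th9. The averaged difference of -0.37 ± 0.15 passed with the block (adjusted p = 0.0286, and 0.0868 without it).

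The 4 Pdk1 probe sets disagreed. Probe set 1423747_a_at gave -0.65 in Th1 and 1435836_at gave -0.45, neither past the test (adjusted p = 0.21 and 0.381), and both were above 0 in Th17 (0.38 and 0.50). Probe set 1434974_at gave 0.33 in Th1 and passed as higher in PBAB in Th9 (1.03), in Th17 (1.42) and in the average (0.93, adjusted p = 7.03e-05). Its signal was 4.01 to 5.58 and exceeded the filter threshold of 5.07 in 4 of 15 arrays, those of Th17 PBAB and Th9 PBAB. The averaged difference was -0.37 with the probe set used, -0.17 with 1423747_a_at and 0.17 with 1435836_at, none past the test without the block. The sign of the averaged Pdk1 difference therefore depends on the probe set. Calls as higher in PBAB came only from 1434974_at, the one near the threshold.

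**Figure D3:**
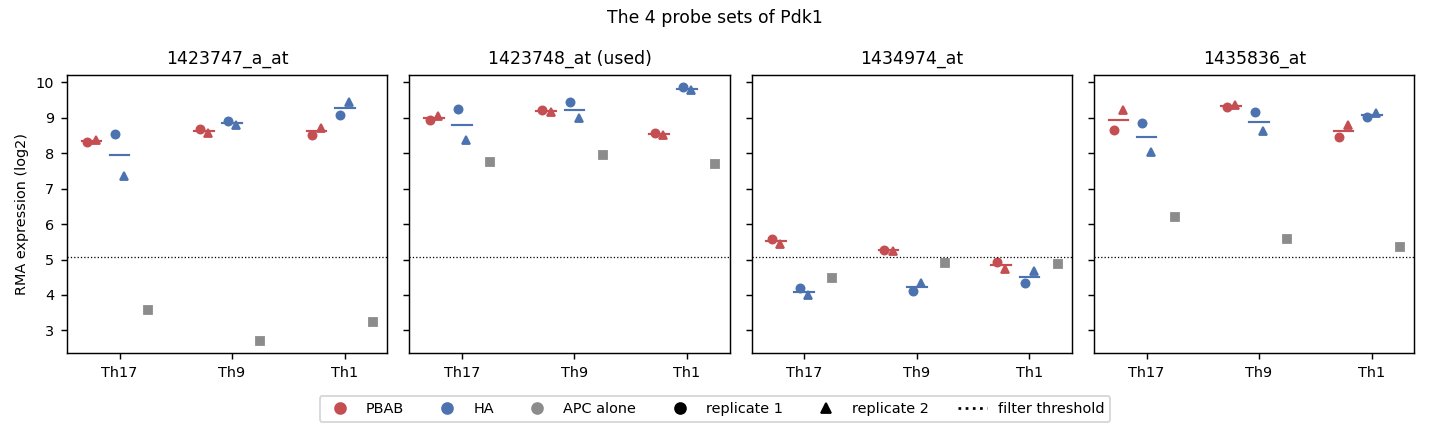
The 4 Pdk1 probe sets (vertical axis, log2 RMA value) in the 15 arrays, drawn like the levels of the 10 genes. Probe set 1434974_at stays between 4.01 and 5.58, around the dotted filter threshold of 5.07, and is the only one with Th1 PBAB arrays above Th1 HA arrays.

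Tests of the difference between lineages passed for 3 genes. The PBAB minus HA difference was larger in Th17 than in Th1 by 2.34 ± 0.39 for Ero1a (adjusted p = 0.0112), by 1.54 ± 0.25 for Pfkfb4 (adjusted p = 0.00891) and by 1.52 ± 0.33 for P4ha1 (adjusted p = 0.0346). For Ero1a it was also larger in Th17 than in Th9, by 2.08 ± 0.39 (adjusted p = 0.0289). All 10 genes had a value above 0 for Th17 against Th1, with a median of 1.60, beside -0.03 for all genes tested, of which 3.53% passed (2.15% with a larger Th17 value). For Th17 against Th9, 1.71% of all genes passed (0.607% with a larger Th17 value), and for Th9 against Th1 1.37%, where none of the 10 did by limma and 5 had an unadjusted p under 0.05. The F test over the 3 lineages passed for Ero1a and Pfkfb4, and for 4.19% of all genes.

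With the replicate block the Th17 against Th1 difference passed for 9 of the 10 genes, Ddit4 being the exception, while 11.8% of all genes passed. The block added Egln3 (adjusted p = 0.0453) and Pfkfb4 (adjusted p = 0.0157) for Th17 against Th9, where 9.52% of all genes passed. It added Pdk1 (adjusted p = 0.0404) for Th9 against Th1, where 4.77% of all genes passed. The F test then passed for 6 genes and 14.9% of all genes. Over all 140 results of the 10 genes tested with and without the block, it added 29 calls and removed none. The Pfkfb4 difference between Th17 and Th1 passed in all 20 alternatives, that of Ero1a in 19 of 22 and that of P4ha1 in 12 of 21. With each of the gene's other probe sets, Ero1a passed neither against Th1 nor against Th9. For Ero1a, Th17 against Th9 passed in 11 of 22 and was lost without Th17 HA 2.

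Within one activation and without the block, 5 genes passed between Th17 and Th1 under HA and 1 under PBAB. Under HA, Ero1a (-1.80 ± 0.28), Ankrd37 (-1.70 ± 0.39), Vegfa (-1.23 ± 0.32), Pdk1 (-1.02 ± 0.26) and Pfkfb4 (-0.97 ± 0.18) were lower in Th17 than in Th1, with adjusted p between 0.00267 and 0.0428, and all 10 values were below 0. Of all genes tested 6.9% passed in that comparison, 3.87% as lower. Ero1a was also lower in Th17 HA than in Th9 HA cultures (-2.01 ± 0.28, adjusted p = 0.00258), where 4.77% of all genes passed, 2.16% as lower. Under PBAB P4ha1 alone passed between Th17 and Th1 without the block, as higher in Th17 (1.00 ± 0.23, adjusted p = 0.0294), beside 6.99% of all genes, 3.86% as higher. Without the block no gene of the 10 passed between Th9 and Th1 under HA or PBAB or between Th17 and Th9 under PBAB, where 5.34%, 2.16% and 6.37% of all genes did. By limma with an unadjusted p under 0.05 the counts were 4, 2 and 3 of the 10 genes.

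With the block 8 more of these differences within one activation passed. Egln3 (-0.99, adjusted p = 0.0351) and Ndrg1 (-2.37, adjusted p = 0.0131) were then also lower in Th17 HA than in Th1 HA cultures, where 15.3% of all genes passed. Ankrd37 (-1.04, adjusted p = 0.0192), Ddit4 (-0.83, adjusted p = 0.0321) and Pfkfb4 (-0.52, adjusted p = 0.0335) were lower in Th17 HA than in Th9 HA, beside 11.8% of all genes. P4ha1 was lower in Th9 HA than in Th1 HA (-0.76, adjusted p = 0.0206), beside 12% of all genes. Under PBAB, Pfkfb4 was higher in Th17 than in Th1 (0.58, adjusted p = 0.0161) and P4ha1 higher in Th17 than in Th9 (0.82, adjusted p = 0.0114), beside 17% and 15.2% of all genes.

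Th17 HA 2 had the lowest value of the 12 activated arrays in 9 of the 10 genes, P4ha1 being the exception. This was not counted over all genes tested. The mean of the 10 genes, each centred over the 12 arrays, was -1.34 in Th17 HA 2 and -0.43 in Th17 HA 1. It was 0.47 and 0.58 in the Th17 PBAB arrays. Without Th17 HA 2, 4 genes passed in Th17 and 5 in the average, as P4ha1 was lost in both and Pdk1 passed in the average as lower in PBAB (-0.52, adjusted p = 0.00684). Of the 5 genes lower in Th17 than in Th1 under HA, Ero1a alone still passed. HA replicate 1 lay above replicate 2 in 10 of 10 genes in Th17, 8 in Th9 and 9 in Th1. The medians of these replicate differences were 0.83, 0.37 and 0.31, beside -0.04, -0.01 and 0.00 for all genes tested. In PBAB replicate 1 lay above replicate 2 in 4 genes in Th17, 4 in Th9 and 6 in Th1, with medians of -0.09, -0.05 and 0.04. The replicate block takes the replicate difference as shared by HA and PBAB, which these medians of the 10 genes do not show.

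Macrophage and monocyte markers moved with the lineage in HA cultures. Their mean was 4.68 and 4.94 in Th17 PBAB arrays, against 6.46 and 6.76 in Th17 HA, then 4.73 and 5.03 in Th9 PBAB, against 6.14 and 5.71 in Th9 HA, and 4.82 and 5.05 in Th1 PBAB, against 5.11 and 5.05 in Th1 HA. Between 4 and 8 of the 17 tested markers exceeded the filter threshold in PBAB arrays, 9 to 14 in HA arrays and all 17 in APC alone. Of the 17, 10 were lower in PBAB in Th17, 7 in Th9 and 2 in Th1, beside 10.4%, 6.32% and 9.4% of all genes tested. None was higher in PBAB in Th17, 1 was in Th9 and 1 in Th1. Lysozyme Lyz2 averaged 5.39 in Th17 PBAB and 10.59 in Th17 HA, and 4.95 in Th1 PBAB and 6.17 in Th1 HA. In the arrays of APC alone, where these markers were highest, 9 of the 10 hypoxia-induced genes were lower than in HA. By the same test 49.5% of all genes tested were lower there too. The 18S ribosomal signal was 9.98 to 11.45 in PBAB, 9.27 to 10.89 in HA and 8.602 to 8.82 in APC alone. The part of these measures in the gene differences was not tested.

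Compared with APC alone, activated cultures of either kind held more transcript of most of the genes. In PBAB all 10 were higher, led by Egln3 (4.58 ± 0.25), Ndrg1 (3.96 ± 0.57) and Ddit4 (3.87 ± 0.25). In HA 9 were higher, led by Egln3 (4.57 ± 0.25), Bnip3 (3.40 ± 0.29) and Ndrg1 (2.96 ± 0.57), whereas Vegfa did not pass (-0.21 ± 0.22, adjusted p = 0.391). These comparisons hold 1 array of APC alone per lineage and share those 3 arrays, and 89.8% of all genes tested passed in PBAB (48.7% as higher) and 90.7% in HA (49.5% as higher), shares that leave little to read from the counts of the 10 genes. The median of all genes was itself 0.31 higher in PBAB and 0.36 higher in HA than in APC alone. These medians were 0.73 and 0.80 after each array was centred and 0.01 and 0.0057 after quantile normalization was run again. After that second normalization Egln3 was still 3.67 and 3.61 above APC alone, but Vegfa (-0.16) and Pdk1 (-0.28) turned below it in PBAB and did not pass. Pdk1, at 1.49 in HA minus APC alone before it, was then at 0.0073 and did not pass (adjusted p = 0.963).

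Genes that control HIF were called in both directions, on average about as often as all genes tested. Of 16 such regulators tested, averaged over the lineages, 2 were higher in PBAB, 3 were lower and 11 did not pass, with a median of -0.0054. Of all genes tested 13.2% were higher and 17.3% lower. With the replicate block 3 were higher and 6 lower, beside 18.9% and 23.3% of all genes. Within lineages 1 of the 16 passed in Th17, 1 in Th9 and 2 in Th1, all as lower. Of all genes 10.4%, 6.32% and 9.4% were lower there. With the block 2, 5 and 5 passed in either direction, beside 30.4%, 26.2% and 28.3% of all genes. Hif1a, the alpha subunit named in most work on T cells, averaged 12.51 in PBAB and 12.23 in HA (0.29 ± 0.16, adjusted p = 0.217). Epas1, which encodes another alpha subunit, was lower (-1.28 ± 0.18, adjusted p = 0.000353), with -1.77 in Th9 and -2.20 in Th1 past the test and 0.13 in Th17 not. Cited2, which competes with HIF-alpha for coactivators, and the coactivator Crebbp were lower (-0.80 and -0.30). Siah2, a ubiquitin ligase that degrades prolyl hydroxylases, and Hif3a were higher by 1.00 and 0.41. The hydroxylase Egln1, which sets HIF-alpha stability in normal oxygen, passed in Th1 (-1.04 ± 0.30, adjusted p = 0.0403).

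Of 28 other hypoxia-induced genes tested, 7 were higher in PBAB on average and none lower, beside 13.2% and 17.3% of all genes tested. In Th17 9 were higher (6.66% of all genes), and in Th9 3 were higher and 1 lower (7.39% and 6.32%). In Th1 1 was lower (9.4%). With the block 10 of the 28 were higher on average and 14 in Th17, with none lower in either. Of all genes 18.9% and 12.5% were then higher. The block gave 3 higher and 2 lower in Th9 (13.8% and 12.4% of all genes). In Th1 it gave 1 higher and 3 lower (10.8% and 17.4%). The list's medians of 0.82 in Th17, 0.21 in Th9 and -0.25 in Th1 ran in the same order as those of the 10 genes. The 3 with the smallest p were Insig2, a sterol sensor partner (0.83 ± 0.12), Hilpda, a lipid droplet protein (1.08 ± 0.18), and the transcription factor Bhlhe40 (0.95 ± 0.17). Hilpda was 2.08 higher in Th17, 1.06 in Th9 and 0.11 in Th1, the last not past the test. Bhlhe40 was 1.98 higher in Th9, with 0.72 in Th17 and 0.15 in Th1 not past the test, though the Th17 value passed with the block (adjusted p = 0.0285).

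Without the replicate block 2 of 15 glycolysis enzymes and transporters passed on average, beside 30.6% of all genes tested. Pfkp, a phosphofructokinase, was higher in PBAB (0.50 ± 0.15) and Ldha, which makes lactate, was lower (-0.36 ± 0.08). The other 13 did not pass. In Th17 3 were higher (median 0.38), beside 6.66% of all genes, and in Th1 2 were lower (median -0.52), beside 9.4%. In Th9 the 15 did not pass (median -0.0037), where 13.7% of all genes did. With the block 2 were higher and 3 lower on average, beside 18.9% and 23.3% of all genes. It gave 6 higher in Th17 and 5 lower in Th1, beside 12.5% and 17.4%. In Th9 none passed by limma with the block, beside 26.2% of all genes.

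Among ATF4 response genes, a group defined by the factor that can also induce Ddit4, 15 of 17 tested were higher in PBAB on average and none lower. With the block 16 were higher. Of all genes tested 13.2% were higher on average, and 18.9% with the block. In Th17 10 of the list were higher, in Th9 11 and in Th1 10 (13, 15 and 15 with the block). Beside these stood 6.66%, 7.39% and 5.22% of all genes (12.5%, 13.8% and 10.8% with the block). The medians were 1.04 in Th17, 2.02 in Th9 and 1.15 in Th1. Nupr1, a stress-induced chromatin protein, was higher by 4.28 ± 0.22, and Cth, an enzyme of cysteine synthesis, by 4.61 ± 0.31, with an HA mean of 4.83, below the filter threshold. The transcription factor Atf5 was higher by 1.79 ± 0.13. This list was earlier seen to rise in these arrays, so its count is no independent evidence.

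Lists tied to single members are given beside 30.6% of all genes tested that passed on average, 13.2% as higher and 17.3% as lower. With the block 42.2% of all genes passed, 18.9% as higher and 23.3% as lower. Of 13 regulators of mTORC1 and AMPK, the pathways that Ddit4 acts on, 2 were higher and 2 lower, with Flcn at 1.07, Txnip at -1.02 and Prkaa1 at -0.84. With the block 2 were higher and 3 lower. Of 13 genes of oxidative folding and the unfolded protein response, the setting of Ero1a, 2 were higher and 3 lower, with Herpud1 at 0.68, Sdf2l1 at -1.12 and Pdia3 at -0.75. The block gave 3 higher and 3 lower there. Of 6 mitophagy genes, the setting of Bnip3, Gabarapl1 was higher (1.15) and Becn1 lower (-0.38), and with the block 2 were higher and 2 lower. None of 6 other genes of the pyruvate dehydrogenase kinase and PFKFB families passed by limma on average, and 1 had an unadjusted p under 0.05, while with the block 1 was lower.

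**Figure D4:**
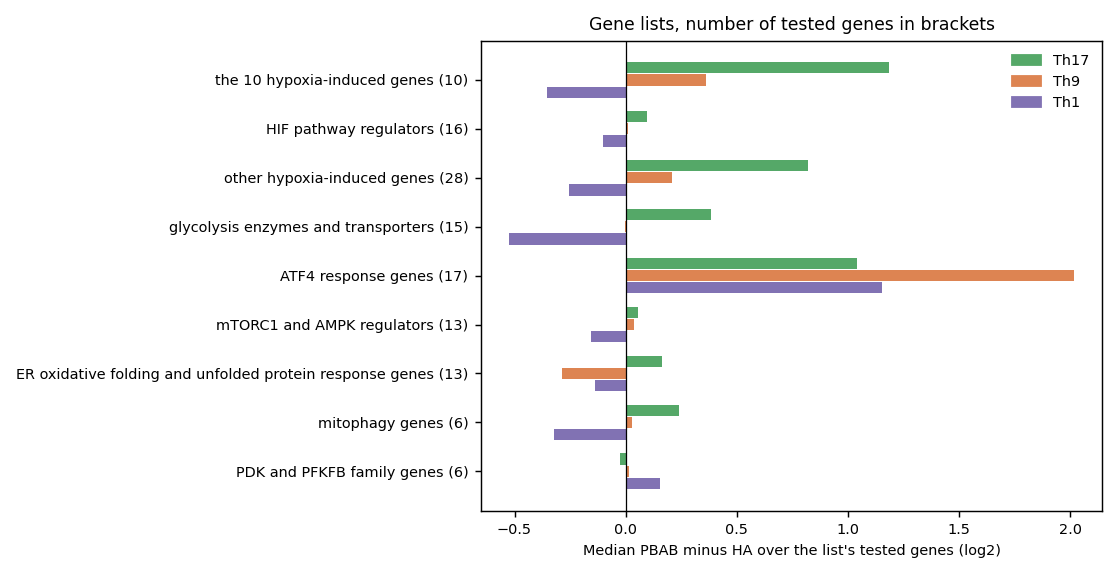
Median PBAB minus HA difference (horizontal axis, log2) over the tested genes of each list, as bars for Th17, Th9 and Th1 from top to bottom within a list. The 10 hypoxia-induced genes run from 1.18 in Th17 to -0.35 in Th1, the other hypoxia-induced genes from 0.82 to -0.25, and the ATF4 response genes stay above 1.00 in each lineage.

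The genes closest to the 10 in profile were found by the root mean square difference between a gene's centred values and the mean centred profile of the 10, over the 12 activated arrays. The 5 closest were the histone demethylase Kdm5b (0.163), the phosphatidate phosphatase Lpin1 (0.163), Zcchc24 (0.19), Sertad1 (0.195) and the glycolytic aldolase Aldoa (0.197). For comparison, among the 10 themselves the smallest such difference from their own mean was that of Pfkfb4 (0.226) and the largest that of Ndrg1 (0.708). Kdm5b was 9.47 and 9.69 in Th17 PBAB arrays, against 8.53 and 7.72 in Th17 HA. In Th1 it was 9.27 and 9.31 under PBAB, against 9.38 and 9.08 under HA. These genes were picked for that likeness, so no test of their differences is given as support.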

How the data were processed

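RNA of 15 cultures was hybridised to Affymetrix mouse arrays. The deposited values are log2 intensities made by the authors with RMA, per the submitters' processing notes; the log base was read from their range. By the annotation of 2016, 34958 of 45101 probe sets had 1 symbol, 932 several and 9211 none, and 34754 were updated through Entrez identifiers to RefSeq (GRCm38.p6). Each gene took its probe set with the highest mean. Genes above the 40th percentile of the table (5.07) in at least 2 arrays were tested, 15498 of 18194. limma 3.58.1 (R 4.3.3) fitted 1 mean per group over 15 arrays (6 residual degrees of freedom, 4.38 prior), with Benjamini-Hochberg adjustment over all genes tested and a threshold of 0.05. Depth does not apply to arrays; their number limits the precision. On simulated data 51% to 60% of 2-fold and 96% to 98% of 4-fold changes within a lineage were recovered, and 98% and 100% in the average. The simulation changed 200 of 15498 genes and drew noise independently for each array. In the real arrays more genes passed and replicates deviated together, so recovery there may differ.

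The labels call the replicates biological but name no animals or cultures, and the spread that p-values are set against is that between arrays of a group, which may be technical. Arrays with the same replicate number deviated together in all 15 pairs of groups (correlation 0.30 to 0.71), so the numbers were taken as pairs. A second fit was blocked on that number, as a difference shared by all groups, over the 12 activated arrays (5 residual degrees of freedom, 5.70 prior). It is given beside calls and counts of the 10 genes that it changed and beside counts of the gene lists. Marker counts are given without it. Other alternatives were the filter, normalization, array weights, probe set choice, the arrays fitted and leaving out each array. The 10 genes and all lists were chosen with earlier results of these data known. Named genes were the 10, the 3 genes with the smallest p among those called in each list, and the 5 closest profiles. Hif1a, Hif3a, Crebbp, Egln1 and Lyz2 were named after their values were seen.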

Additional observations from a re-analysis of the deposited data

Results flagged for a closer look

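The difference between PBAB and HA cultures passed a test of Th17 against Th1 for 3 of the 10 genes, and for 3.53% of all genes tested. It was larger in Th17 than in Th1 by 2.34 on the log2 scale for Ero1a, by 1.54 for Pfkfb4 and by 1.52 for P4ha1. For Ero1a it was also larger in Th17 than in Th9, by 2.08. The F test over the 3 lineages did not pass for P4ha1 (adjusted p = 0.0617). Both Ero1a calls were lost with each of the gene's other probe sets, 1419030_at and 1449324_at. Without Th17 HA 2 the Ero1a value against Th9 was 1.78 (limma, adjusted p = 0.113) and the P4ha1 value 1.13 (adjusted p = 0.0918), neither past the test.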

How the results depend on the processing

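With 2 arrays per group, and 1 per lineage of APC alone, single arrays moved many counts. The replicate block raised the number of the 10 genes that passed to 7 in the average (5 without it), 7 in Th17 (5), 3 in Th9 (1) and 4 in Th1 (2). Of all genes tested 42.2%, 30.4%, 26.2% and 28.3% then passed, against 30.6%, 17.1%, 13.7% and 14.6% without it. For the activation difference the block gave 9 for Th17 against Th1 (3), 3 for Th17 against Th9 (1), 1 for Th9 against Th1 (0) and 6 in the F test (2). Of all genes 11.8%, 9.52%, 4.77% and 14.9% then passed. Between lineages it gave 7 for Th17 against Th1 under HA (5) and 2 under PBAB (1), beside 15.3% and 17% of all genes. It gave 4 for Th17 against Th9 under HA (1) and 1 under PBAB (0), beside 11.8% and 15.2%. For Th9 against Th1 under HA it gave 1 (0), beside 12%. The block removed no call. The mean of all probe sets gave 1 in Th1, 0 for Th17 against Th9 and 1 in the F test. Centring each array gave 1 in Th1, and quantile normalization run again gave 1 for Th17 against Th9 under PBAB. The causes were not tested.

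Leaving out 1 array, the counts ranged over 4 to 6 in the average, 4 to 8 in Th17, 0 to 2 in Th9 and 1 to 3 in Th1. They ranged over 1 to 8 for the difference of Th17 against Th1, 0 to 2 for Th17 against Th9 and 0 to 6 in the F test, and stayed at 0 for Th9 against Th1. Under HA they were 1 to 8 for Th17 against Th1, 1 for Th17 against Th9 and 0 to 1 for Th9 against Th1. Under PBAB they were 0 to 2 for Th17 against Th1, 0 to 1 for Th17 against Th9 and 0 for Th9 against Th1. Against APC alone they stayed at 10 in PBAB and 9 in HA.

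The averaged Egln3 difference turned to -0.0075 with centred arrays. For Pdk1 the average turned to 0.14 (mean of probe sets), 0.93 (1434974_at) and 0.17 (1435836_at), and Th9 to 0.31, 1.03 and 0.45 with the same 3 settings. With 1434974_at Pdk1 was 0.33 in Th1 and -0.48 for HA against APC alone. Ero1a in Th1 turned to -0.0224 (1419030_at) and -0.0737 (1449324_at). After quantile normalization was run again, Vegfa (-0.16) and Pdk1 (-0.28) turned for PBAB against APC alone. Leaving out 1 array, differences that had not passed ranged across 0. In the average these were Bnip3 (-0.30 to 0.15), Egln3 (-0.18 to 0.20) and Ankrd37 (-0.25 to 0.14). In Th17 it was Pdk1 (-0.25 to 0.64). In Th9 these were Bnip3 (-0.26 to 0.38), Egln3 (-0.72 to 0.0157), Ankrd37 (-0.0687 to 0.51), Ndrg1 (-0.28 to 1.86) and Pdk1 (-0.25 to 0.18). In Th1 these were Ero1a (-0.12 to 0.43) and Ndrg1 (-0.87 to 0.22). Over the single-gene values recomputed, 1320 kept their direction and side of the threshold, 86 lost their call, 33 gained one and 38 changed sign.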
